A study of Mus musculus with 12 samples.

Results

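The 52 genes described here encode the actin cytoskeleton and its contractile machinery: the cytoplasmic actins, filament crosslinkers, tropomyosins, non-muscle myosin, the calponin family, focal adhesion and stress fibre adaptors, monomer-binding and severing proteins, small GTPases, membrane linkers and the transcription factor Srf. The members are a fixed list of gene symbols and make up 52 of the 25239 genes in the table. Of them, 51 had enough counts to be tested, among 14901 such genes in all. Lmod1, a leiomodin that nucleates actin filaments in smooth muscle, was not tested and stood between 0 and 0.397 CPM in the 12 libraries. RNA was sequenced from fibroblasts sorted from the back skin of wild-type male C57BL/6 mice aged 8 weeks. The groups are unwounded skin (NW) and full-thickness wounds made with a 4 mm punch and taken 16 h, 1.5 d and 3 d later, with 3 libraries from 3 mice in each. The sort kept live cells that carry SCA1 and lack CD45 and CD31, so fibroblasts without surface SCA1 were not measured in any group.

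An actin filament is a polymer of actin monomers that grows and shrinks at its ends. Profilin and thymosins hold monomers, cofilin and gelsolin cut filaments, and crosslinkers such as alpha-actinin and filamin tie filaments into networks and bundles. In stress fibres, non-muscle myosin slides along filaments covered by tropomyosin, and focal adhesions fasten the fibre ends to the matrix. RhoA signalling drives contraction through phosphorylation of the myosin regulatory light chain, and SRF, together with cofactors that bind actin monomers, activates many of these genes through a promoter element called the CArG box. In healing skin, fibroblasts crawl into the wound, and some later become contractile myofibroblasts.

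Library totals ranged from 26389453 to 43493475 counts, at which 3 counts stand for 0.069 to 0.114 CPM before TMM scaling. CPM of single genes is the count scaled by library size after TMM, and sums over markers use library size without TMM. Ly6a, which encodes SCA1, had 1053 ± 158 CPM in NW, 1514 ± 382 CPM after 16 h, 2019.9 ± 781 CPM after 1.5 d and 1091 ± 125 CPM after 3 d (SD, n = 3). The 12 fibroblast markers summed to 89250 to 177700 CPM in NW, 45800 to 103700 CPM at 16 h, 86110 to 113500 CPM at 1.5 d and 124800 to 205600 CPM at 3 d. Of the genes for the antigens sorted against, Ptprc (CD45) reached at most 8.71 CPM and Pecam1 (CD31) at most 3.98 CPM. Markers of other cells moved with the groups. The 16 keratinocyte markers summed to 19740 to 39420 CPM in NW, 8841 to 14420 CPM at 16 h, 4315 to 7563 CPM at 1.5 d and 839.4 to 13270 CPM at 3 d. The 11 pericyte and vascular smooth muscle markers other than Acta2 summed to 305.4 to 359.3 CPM in NW, 34.7 to 61.5 CPM at 16 h, 51.7 to 74.8 CPM at 1.5 d and 139.2 to 215.8 CPM at 3 d. The defining pericyte gene Rgs5 was at 0 in 2 libraries and at most 12.5 CPM, and the smooth muscle myosin gene Myh11 was at 0 in 4 and at most 2.52 CPM. The 10 endothelial markers summed to 76.7 to 115.5 CPM in NW and 9.99 to 50.7 CPM in wounds, the 14 leukocyte markers to 46.0 to 109.1 CPM over all libraries, and the 12 skeletal muscle markers to at most 25.4 CPM. Csf1r held most of the leukocyte sum in NW, with 2410, 1032 and 1644 counts against 658, 463 and 416 at 16 h. Of the 13 leukocyte markers tested, 4 were higher and 1 lower at 16 h than in NW (median log2 change 2.74). At 1.5 d 3 were higher (median 1.36), and at 3 d 2 (median 1.65). The part of these cells in the values below was not tested directly. A fit with the keratinocyte score as a covariate is given beside each group of the 52 genes. For the other genes of the pathway and for Acta2, neither that fit nor fits with 1 library left out are given. NW had the 3 highest scores, so keratinocyte content and wounding can only partly be told apart. In bulk samples of this kind, fewer cells of a type and less RNA per cell cannot be told apart.

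The promoter sequences are shown first because they hold the element that SRF reads. RefSeq promoters of 300 bases, 250 before and 50 after the annotated start (GRCm38.p6), were listed for 47 of the 52 genes. A CArG box, searched on both strands, lay in 7 of the 47 (14.9%), in 6 of 90 other genes of the pathway (6.67%) and in 488 of 27025 genes in the promoter table (1.81%). These shares are descriptions, and a match is not evidence of binding. The 7 genes were Myl9, Srf, Cnn2, Rnd3, Actg1, Vcl and Myl6, and 5 of them passed the F test over the 4 groups, as did 31 of the 51 genes tested and 29.7% of all genes. For those 5 the 200 bases before the start are printed 5′ to 3′ on the gene's strand, with the box in capitals. They lie at chr2:156775264-156775463 on the plus strand (Myl9), chr17:46556163-46556362 on the minus strand (Srf), chr10:79988400-79988599 on the plus strand (Cnn2), chr2:51149112-51149311 on the minus strand (Rnd3) and chr11:120348496-120348695 on the minus strand (Actg1).
Myl9: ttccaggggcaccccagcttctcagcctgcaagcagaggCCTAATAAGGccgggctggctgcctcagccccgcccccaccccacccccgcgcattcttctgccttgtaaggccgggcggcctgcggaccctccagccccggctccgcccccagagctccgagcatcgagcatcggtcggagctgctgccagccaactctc
Srf: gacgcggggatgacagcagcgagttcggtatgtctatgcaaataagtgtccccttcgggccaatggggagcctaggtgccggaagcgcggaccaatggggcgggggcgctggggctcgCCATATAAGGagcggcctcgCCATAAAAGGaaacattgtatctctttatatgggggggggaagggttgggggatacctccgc
Cnn2: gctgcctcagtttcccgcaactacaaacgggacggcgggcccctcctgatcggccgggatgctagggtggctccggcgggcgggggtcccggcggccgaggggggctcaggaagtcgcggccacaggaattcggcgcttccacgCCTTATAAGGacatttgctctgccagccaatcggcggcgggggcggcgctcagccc
Rnd3: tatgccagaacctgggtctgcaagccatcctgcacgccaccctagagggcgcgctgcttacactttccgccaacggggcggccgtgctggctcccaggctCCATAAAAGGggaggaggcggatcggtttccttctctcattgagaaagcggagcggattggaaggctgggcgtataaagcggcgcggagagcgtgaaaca
Actg1: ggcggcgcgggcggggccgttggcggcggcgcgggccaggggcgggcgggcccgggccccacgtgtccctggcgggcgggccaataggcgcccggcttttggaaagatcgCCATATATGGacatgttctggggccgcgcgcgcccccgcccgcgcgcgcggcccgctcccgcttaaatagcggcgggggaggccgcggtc
The box began 161 bases before the start in Myl9, 82 and 62 bases before it in Srf, which had 2 boxes, 56 in Cnn2, 100 in Rnd3 and 90 in Actg1. Against NW the calls of these 5 genes were all falls, at different times: Srf and Rnd3 were lower at every wound time, Actg1 at 16 h and 3 d, and Myl9 and Cnn2 at 16 h alone. Vcl and Myl6 had no call against NW. At 3 d Myl9 lay above NW without a call (edgeR log2 change 1.21, adjusted p = 0.0626). From 16 h to 3 d Myl9 and Cnn2 rose by 3.91 and 1.66 on the log2 scale. Whether the box has a part in these changes was not tested.

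Many of the 52 genes changed after wounding, in both directions at 16 h and mostly upward at 3 d. At 16 h 11 of 51 were higher and 12 lower than in NW, 45.1% of those tested, where 24.7% of all genes were called (13.5% higher and 11.2% lower). At 1.5 d 15 were higher and 7 lower, 43.1%, against 24.5% of all genes (13.7% higher and 10.8% lower). At 3 d 20 were higher and 6 lower, 51% of those tested, against 21.1% of all genes (12% higher and 9.15% lower). The median log2 change over the 51 genes was 0.18, 0.38 and 0.55 at the 3 times, and that over all genes tested was -0.04, 0.01 and 0.00. The F test over the 4 groups called 31 of the 51, where it called 29.7% of all genes. The 52 genes were chosen with earlier results of these data known, so these shares describe the list and do not test it. With the keratinocyte covariate edgeR called 8 higher and 6 lower at 16 h, 5 higher and 0 lower at 1.5 d, and 8 higher and 1 lower at 3 d. The shares of all genes called in that fit were 12.4%, 1.48% and 2.14%, and the members' median changes were 0.16, 0.20 and 0.53. Beside the 0 lower at 1.5 d, 2 members were lower at an unadjusted p under 0.05 in that fit. All 3 comparisons use the same NW libraries, so their directions are not independent of each other. Groups did not overlap in 30 of the 51 genes at 16 h against NW (58.8%, with 41.3% of all genes), in 27 at 1.5 d (52.9%, with 40.7%) and in 31 at 3 d (60.8%, with 40.3%). Without 16 h replicate 2 the count lower at 16 h was 6, without NW replicate 2 that at 1.5 d was 4, and without 3 d replicate 1 that at 3 d was 3. With total counts in place of TMM scaling, the median of all genes at 3 d against NW shifted to -0.11, and 19 of the 51 genes were higher and 6 lower. Over all genes 1473 were higher and 1579 lower with total counts. That is 48.3% higher among those called, where TMM gave 56.7%.

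The calls sort the genes into a few patterns. Actn1, Flna, Flnc, Fscn1, Tpm4, Cald1, Pdlim7, Synpo and Msn were higher than in NW at all 3 times, and Rnd3, Rhob, Ezr and Srf were lower at all 3. In 5 genes, Myl9, Myl12b, Mylk, Myh10 and Cnn2, the level was lower at 16 h and not called later, and in 5 others, Tpm1, Tpm2, Myh9, Tagln and Svil, it was higher at 3 d alone. Cnn3, Tln1, Lasp1, Rhoc and Marcksl1 were higher at 1.5 d and 3 d. The number called at 1 or more times was 35, and no gene was called higher at one time and lower at another. The 17 others include Lmod1, which was not tested, and 16 that missed the threshold: Actb, Actn4, Myl6, Myl12a, Tagln2, Cnn1, Vcl, Pxn, Pdlim5, Cfl1, Arpc2, Arpc5, Capg, Tmsb10, Diaph3 and Rhoa. A missed threshold does not show that a gene was unchanged.

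**Figure D1:**
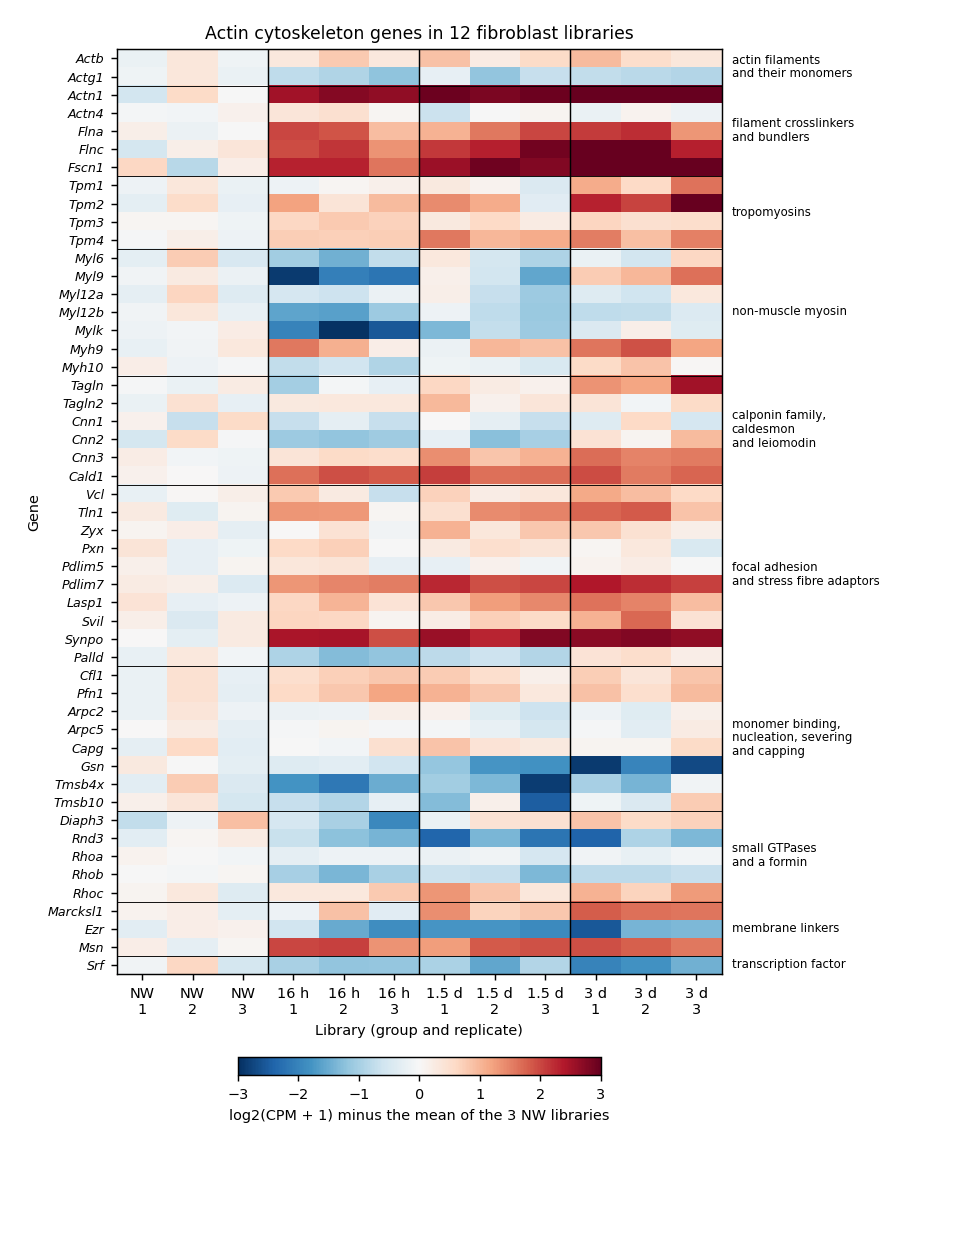
Level of each of the 51 tested genes (rows, grouped by role) in each of the 12 libraries (columns, 3 per group), as log2(CPM + 1) minus the mean of the 3 NW libraries. Actn1, Fscn1, Flnc and Synpo are high in all 9 wound libraries, Mylk and Myl9 are low in the 3 libraries at 16 h, and Gsn is lowest at 3 d. Colours stop at 3 on either side.

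Summed over the 52 genes, the share of all counts was 3.39% ± 0.475 in the NW libraries, 3.24% ± 0.244 after 16 h, 2.47% ± 0.212 after 1.5 d and 2.28% ± 0.2 after 3 d (SD, n = 3). Gelsolin alone, Gsn, took 1.78% ± 0.284, 1.36% ± 0.091, 0.587% ± 0.116 and 0.291% ± 0.082 in the same order. For the genes other than Gsn it was 1.62% ± 0.368, 1.89% ± 0.155, 1.88% ± 0.1 and 1.99% ± 0.258, so at 1.5 d and 3 d the sum was below NW with Gsn and not without it. Per kilobase of exon, the 4 most abundant of these transcripts in NW were Gsn (5806 CPM per kb), Tmsb4x (1940 CPM per kb), Actb (1745 CPM per kb) and Actg1 (1012 CPM per kb). At 3 d they were Actb (2660 CPM per kb), Tmsb4x (1088 CPM per kb), Pfn1 (1088 CPM per kb) and Gsn (1038 CPM per kb), and the last 3 differed by less than the spread between libraries. Below, levels are CPM of replicates 1, 2 and 3 in that order, mean ± SD is over n = 3, a log2 change is from the edgeR quasi-likelihood fit, and its p is adjusted by Benjamini-Hochberg over all 14901 genes.

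Of the cytoplasmic actins, gamma-actin fell and beta-actin did not pass. Actg1, gamma-actin (chr11:120345687-120348495, mm10), had 1775, 2467 and 1686 CPM in NW, 1154, 1043 and 844 CPM at 16 h, 1629.5, 854 and 1196 CPM at 1.5 d, and 1173, 1106 and 1062 CPM at 3 d. All 9 wound libraries lay below NW, 1.5 d replicate 1 only narrowly. It fell by 0.96 at 16 h on the log2 scale (SE 0.25, adjusted p = 0.0151) and by 0.83 at 3 d (SE 0.25, adjusted p = 0.0343), and the 1.5 d change was -0.69 (adjusted p = 0.064). Actb, beta-actin (chr5:142903115-142906754), had 2893, 4158 and 3002 CPM in NW, 4089.8, 5723 and 4107 CPM at 16 h, 6033, 3941 and 4955 CPM at 1.5 d, and 6396, 4733 and 4194 CPM at 3 d. The 16 h and 1.5 d groups overlapped with NW replicate 2 and the 3 d group lay just above it, and the changes of 0.47 (adjusted p = 0.209), 0.57 (adjusted p = 0.131) and 0.61 (adjusted p = 0.117) missed the threshold. Actg1 lost its 16 h call without NW replicate 2 or 16 h replicate 2 or 3 (adjusted p up to 0.0615, log2 change -1.06 to -0.77 over the 12 fits). It lost its 3 d call without NW replicate 2, 16 h replicate 2 or 3 d replicate 1, 2 or 3 (adjusted p up to 0.135, log2 change -0.91 to -0.63 over the 12 fits), and also with the keratinocyte covariate (log2 change -0.99, adjusted p = 0.3). Of the 50-base windows of Actg1 transcripts, 37.4% also occur in other annotated genes, Gm12715, Gm8399 and Actg-ps1 above all, so its count may be incomplete. For Actb this share is 9.12%.

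Filament crosslinkers had the largest median rise of the role groups at every time, with 1.86, 2.51 and 2.97 on the log2 scale. Of the 5 genes 4 rose at every time, all but Actn4: Actn1 is a non-muscle alpha-actinin, Flna and Flnc are filamins, and Fscn1 is fascin, which bundles filaments in cell protrusions. Actn1 (chr12:80167542-80260381) had 2.06, 5.69 and 3.48 CPM in NW, 25.1, 29.5 and 27.6 CPM at 16 h, 33.5, 31.1 and 33.5 CPM at 1.5 d, and 47.2, 42.4 and 45.1 CPM at 3 d. Every wound library was above every NW library, and the lowest of them, at 16 h, stood more than 4 times over the highest NW value. The change was 2.87 (SE 0.31, adjusted p = 7.19e-05) at 16 h, 3.12 (SE 0.32, adjusted p = 4.51e-05) at 1.5 d and 3.58 (SE 0.32, adjusted p = 2.25e-05) at 3 d. Fscn1 (chr5:142960355-142973189) had 28.0, 9.57 and 20.5 CPM in NW, 92.5, 92.2 and 56.4 CPM at 16 h, 110.3, 140.3 and 127 CPM at 1.5 d, and 231, 186 and 174 CPM at 3 d. Its wound and NW values did not overlap, and the 3 d libraries lay above all at 1.5 d. The changes were 2.05 (SE 0.34, adjusted p = 0.000959), 2.70 (SE 0.34, adjusted p = 0.000212) and 3.35 (SE 0.35, adjusted p = 5.02e-05) at the 3 times. Flnc (chr6:29433153-29461889), the filamin best known from muscle, had 10.4, 17.7 and 20.2 CPM in NW, 63.3, 71.7 and 40.8 CPM at 16 h, 70.6, 82.7 and 122 CPM at 1.5 d, and 153, 143 and 81.7 CPM at 3 d. No wound library came down to the NW range, and all 3 d libraries were above all at 16 h. The changes were 1.86 (SE 0.34, adjusted p = 0.00178), 2.51 (SE 0.34, adjusted p = 0.000329) and 2.97 (SE 0.35, adjusted p = 0.000121). Flna rose to means of 1038 ± 367 CPM at 16 h, 978 ± 311 CPM at 1.5 d and 1235 ± 369 CPM at 3 d, against 325 ± 41.2 CPM in NW, with changes of 1.67 (adjusted p = 0.00318), 1.59 (adjusted p = 0.00427) and 1.92 (adjusted p = 0.00172). Actn4, the other non-muscle alpha-actinin, had means of 530 to 737 CPM in all groups, with changes of 0.31, -0.16 and -0.08 that did not pass. All calls of Actn1, Flna, Flnc and Fscn1 against NW held whichever library was left out. With the keratinocyte covariate those of Actn1 and Fscn1 held at all 3 times, those of Flnc at 16 h and 3 d and that of Flna at 16 h. In that fit Flna had a log2 change of 1.42 (adjusted p = 0.233) at 1.5 d and 1.75 (adjusted p = 0.112) at 3 d, and Flnc one of 2.28 (adjusted p = 0.0635) at 1.5 d.

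**Figure D2:**
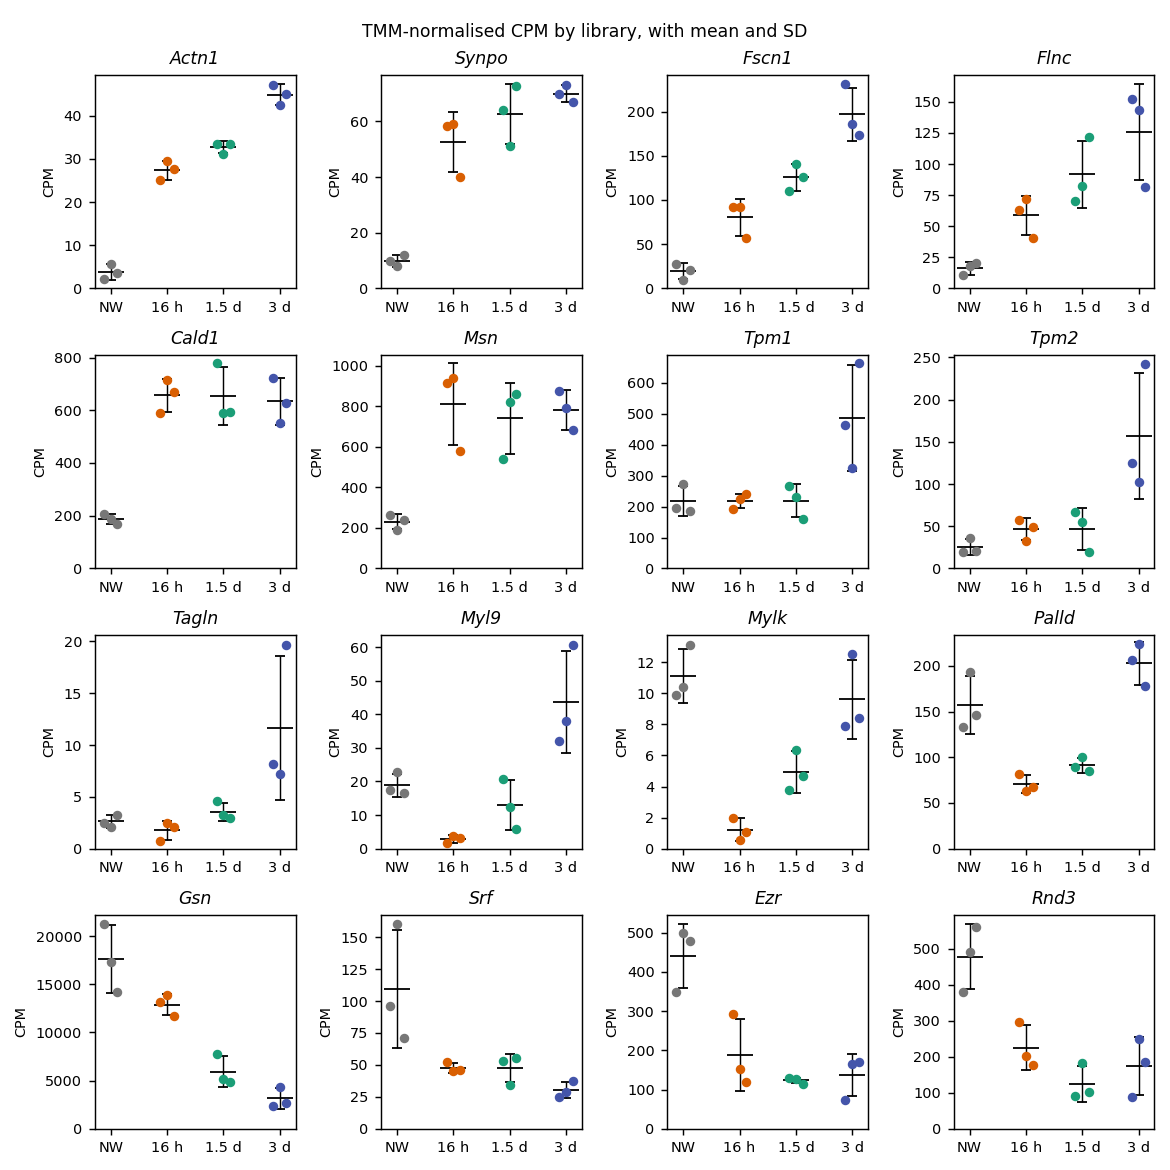
CPM of 16 of the genes in each library (points), with the mean (long bar) and SD (short bars) of the 3 libraries of each group, on linear axes that start at 0. Actn1, Synpo, Fscn1, Flnc, Cald1 and Msn have no overlap between NW and any wound group, whereas Myl9, Mylk and Palld are lowest at 16 h and Tpm1, Tpm2 and Tagln stand out at 3 d only.

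Tropomyosins coat filaments and set which myosins and severing proteins reach them. Tpm3 and Tpm4 were already higher at 16 h, while Tpm1 and Tpm2 passed at 3 d alone. Tpm1 (chr9:67022593-67049213) had 195, 274 and 187 CPM in NW, 194, 223 and 239.7 CPM at 16 h, 265, 232 and 160.4 CPM at 1.5 d, and 465, 326 and 666 CPM at 3 d. The first 3 groups had the same mean of 219 CPM and overlapped, and all 3 libraries at 3 d lay above them. The 3 d change was 1.15 (SE 0.28, adjusted p = 0.0109). Tpm2 (chr4:43513726-43523554) had 19.7, 36.6 and 20.5 CPM in NW, 58.0, 32.5 and 48.6 CPM at 16 h, 67.2, 54.6 and 19.3 CPM at 1.5 d, and 125, 103 and 242 CPM at 3 d. The libraries at 3 d stood above all others, with replicate 3 the highest by far, and those at 16 h and 1.5 d overlapped with NW. It changed by 2.61 (SE 0.47, adjusted p = 0.00194) at 3 d, and by 0.86 (adjusted p = 0.178) and 0.88 (adjusted p = 0.171) at the earlier times. Tpm4 (chr8:72135288-72153142) had 524, 603 and 481 CPM in NW, 885, 882 and 888 CPM at 16 h, 1603, 1059 and 1156 CPM at 1.5 d, and 1549.9, 996 and 1512 CPM at 3 d. All wound libraries were above NW, and those at 16 h were nearly equal. Its changes were 0.72 (SE 0.23, adjusted p = 0.0334), 1.25 (SE 0.23, adjusted p = 0.00205) and 1.34 (SE 0.23, adjusted p = 0.00161). Tpm3 rose by 0.70 at 16 h and 0.55 at 3 d (adjusted p = 0.0115 and 0.0401), with means of 494 ± 31.9 and 445 ± 25.2 CPM against 304 ± 22.6 CPM in NW. Tpm1, Tpm2 and Tpm4 kept their calls at 3 d whichever library was left out. Tpm4 lost its 16 h call without NW replicate 1 or 3 or 16 h replicate 1, 2 or 3 (adjusted p up to 0.0916, log2 change 0.68 to 0.82 over the 12 fits), and Tpm3 without 16 h replicate 2 (adjusted p up to 0.0552, log2 change 0.65 to 0.78 over the 12 fits). For Tpm3 the 3 d call was lost without NW replicate 1, 2 or 3, 16 h replicate 1 or 2 or 3 d replicate 1, 2 or 3 (adjusted p up to 0.148, log2 change 0.50 to 0.62 over the 12 fits), and also under 5 other settings. The keratinocyte covariate left the 3 d call of Tpm2 and ended the others against NW. The log2 changes with it were 0.58, 0.97 and 1.05 for Tpm4 (adjusted p = 0.173, 0.242 and 0.163), 0.66 at 16 h and 0.47 at 3 d for Tpm3 (adjusted p = 0.0638 and 0.533), and 1.26 at 3 d for Tpm1 (adjusted p = 0.186). In Tpm3 and Tpm4, 23.2% and 15.7% of transcript windows are shared with other annotated genes.

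Among the 7 non-muscle myosin genes, 4 fell at 16 h without being called later, and 1, Myh9, rose at 3 d. Myl9 (chr2:156775464-156781657), a regulatory light chain whose phosphorylation starts contraction, had 17.3, 22.7 and 16.5 CPM in NW, 1.67, 3.74 and 3.29 CPM at 16 h, 20.7, 12.4 and 5.71 CPM at 1.5 d, and 32.0, 38.1 and 60.7 CPM at 3 d. The 3 libraries at 16 h were the lowest of all and those at 3 d the highest, while 1.5 d ran from inside the NW range to below it. It fell by 2.70 at 16 h (SE 0.46, adjusted p = 0.0013), and its changes of -0.54 (adjusted p = 0.39) at 1.5 d and 1.21 (adjusted p = 0.0626) at 3 d did not pass. Mylk (chr16:34784950-35002434), the kinase that phosphorylates this chain, had 9.88, 10.4 and 13.1 CPM in NW, 2.00, 0.542 and 1.07 CPM at 16 h, 3.77, 6.38 and 4.65 CPM at 1.5 d, and 7.90, 12.5 and 8.38 CPM at 3 d. Values at 16 h and 1.5 d were all below NW, and those at 3 d overlapped with it. It changed by -3.21 (SE 0.48, adjusted p = 0.000555) at 16 h, and the later changes of -1.17 (adjusted p = 0.0708) and -0.21 (adjusted p = 0.779) did not pass. Myh10 (chr11:68691915-68816624), the heavy chain of non-muscle myosin IIB, had 49.7, 38.5 and 41.9 CPM in NW, 25.5, 28.6 and 22.6 CPM at 16 h, 39.2, 37.2 and 31.3 CPM at 1.5 d, and 65.2, 78.2 and 44.5 CPM at 3 d. The 16 h values lay below NW without overlap and the 3 d values overlapped with NW from above. Its 16 h change was -0.76 (SE 0.23, adjusted p = 0.0295). Myl12b, a close relative of Myl9, had 169.8, 233 and 157 CPM in NW, 60.8, 58.6 and 85.5 CPM at 16 h, 165, 107 and 84.6 CPM at 1.5 d, and 109, 110.5 and 139 CPM at 3 d, and its change was -1.45 (SE 0.27, adjusted p = 0.00216) at 16 h. Its 16 h libraries were all below NW. Those at 3 d were also below, with a change of -0.64 (adjusted p = 0.103). Myh9, the heavy chain of non-muscle myosin IIA, had means of 227 ± 102, 172 ± 66.2 and 330.5 ± 82.1 CPM at the 3 times against 111 ± 23.1 CPM in NW, and its 3 d change was 1.58 (SE 0.37, adjusted p = 0.0093). Myl6, the essential light chain, and Myl12a did not pass at any time, with changes of -1.16 and -0.50 at 16 h.

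In this group the 16 h calls of Myl9, Mylk and Myl12b held whichever library was left out and with the keratinocyte covariate. Myh10 lost its 16 h call without NW replicate 1 or 3, 16 h replicate 1, 2 or 3 or 3 d replicate 1 (adjusted p up to 0.117, log2 change -0.85 to -0.61 over the 12 fits), and with the keratinocyte covariate. In that fit Myh10 had a log2 change of -0.85 at 16 h (adjusted p = 0.0669), and Myh9, whose 3 d call was also lost, one of 1.91 (adjusted p = 0.124). The fall of Myl9 and Mylk at 16 h moved with the sum of the pericyte and smooth muscle markers given above. That sum was lower in all 3 libraries at 16 h than in NW. Most of it in NW was 1 gene, Ndufa4l2, with 5831, 8684 and 5819 counts against 619, 365 and 512 at 16 h. Of the 11 tested markers of that list, Acta2 included, 5 were lower at 16 h and 6 were not called. The part of those cells was not tested. Of the transcript windows of Myl12a and Myl12b, 21.1% and 19.1% occur elsewhere, in part in each other, so fragments of these genes may be lost or assigned to the wrong one. In Mylk 4.26% of exon bases overlap another annotated gene.

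**Figure D3:**
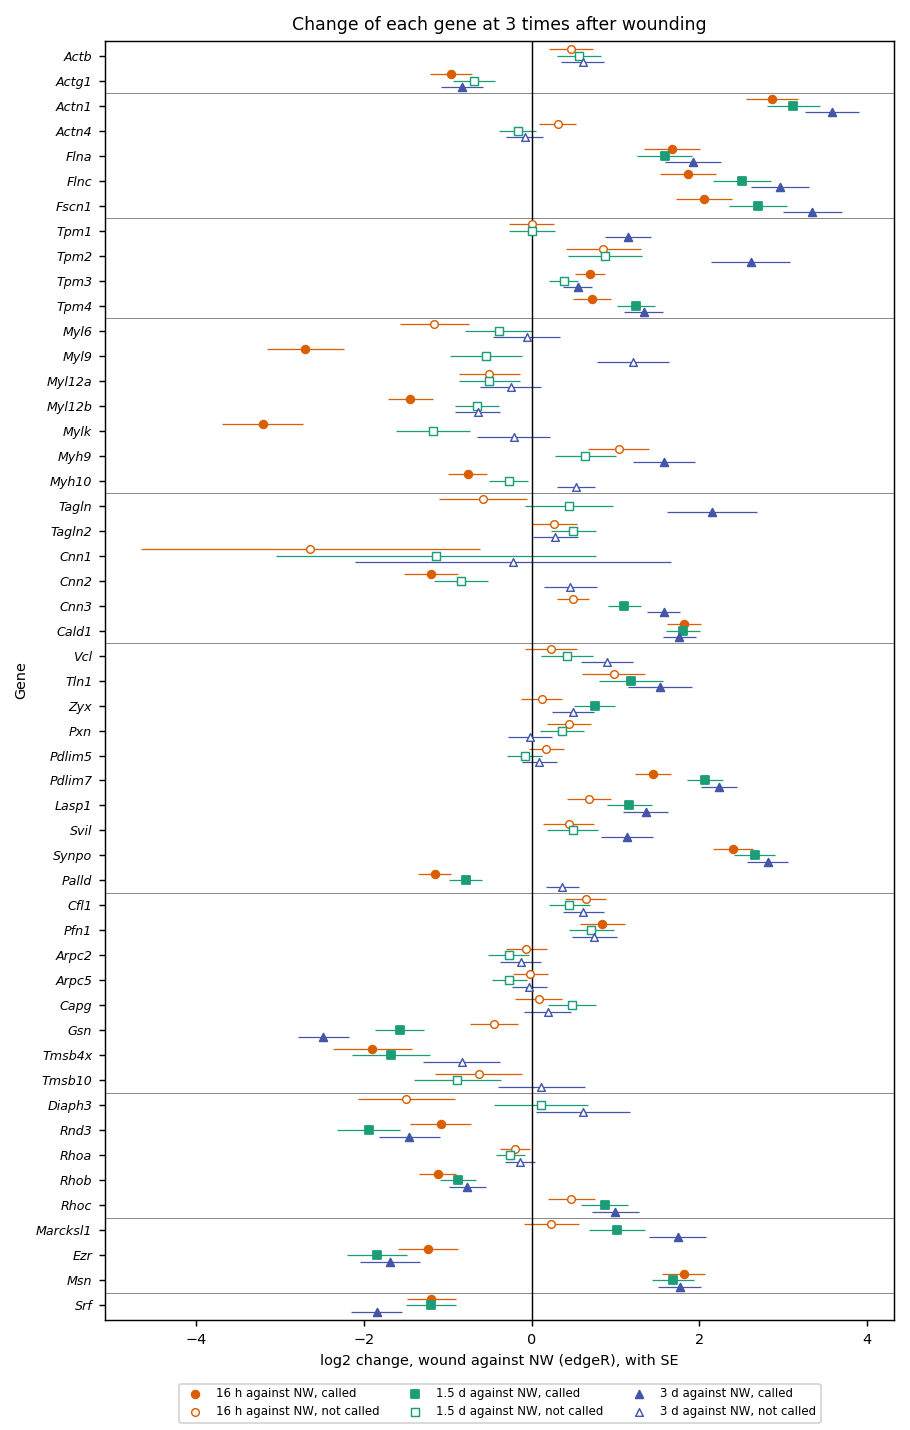
Log2 change of each of the 51 tested genes against NW at 16 h (circles), 1.5 d (squares) and 3 d (triangles), with SE from the edgeR fit. Filled marks are called at an adjusted p under 0.05. Synpo and the crosslinkers other than Actn4 lie to the right at every time. Myl9 and Mylk lie far to the left at 16 h only, and Srf, Ezr, Rnd3 and Rhob lie to the left throughout.

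The calponin family and caldesmon bind filaments and restrain myosin. Cald1 and Cnn3 rose, Cnn2 fell at 16 h and Tagln rose late. Cald1 (chr6:34598504-34775469), caldesmon, had 205, 187 and 168 CPM in NW, 590.2, 713 and 667 CPM at 16 h, 780.2, 588 and 593 CPM at 1.5 d, and 724, 549.9 and 626 CPM at 3 d. All 9 wound values were at least double the highest NW value, and the 3 wound groups overlapped with each other. The changes were 1.82 (SE 0.20, adjusted p = 7.34e-05), 1.81 (SE 0.20, adjusted p = 7.8e-05) and 1.76 (SE 0.20, adjusted p = 9.08e-05). Cnn3 (chr3:121426541-121458205), the calponin of non-muscle cells, had 156, 126 and 122 CPM in NW, 176, 201 and 194 CPM at 16 h, 353, 238 and 279 CPM at 1.5 d, and 429, 380.1 and 395 CPM at 3 d. Every wound group lay above NW, and 3 d above 16 h. The change was 0.50 (adjusted p = 0.0743) at 16 h, 1.11 (SE 0.19, adjusted p = 0.00151) at 1.5 d and 1.58 (SE 0.20, adjusted p = 0.000167) at 3 d. Cnn2 (chr10:79988600-79995400), whose promoter is printed above, had 89.5, 193 and 127 CPM in NW, 60.6, 56.5 and 61.0 CPM at 16 h, 109, 54.2 and 64.8 CPM at 1.5 d, and 175, 138 and 251 CPM at 3 d. The 16 h libraries were close together and below NW, while 3 d overlapped with NW. Its 16 h change was -1.20 (SE 0.32, adjusted p = 0.017). Tagln (chr9:45929628-45936058), transgelin, a smooth muscle and myofibroblast gene, had 2.48, 2.11 and 3.28 CPM in NW, 0.767, 2.44 and 2.05 CPM at 16 h, 4.57, 3.25 and 2.92 CPM at 1.5 d, and 8.14, 7.18 and 19.7 CPM at 3 d. Only the 3 d group lay wholly above NW, with replicate 3 at more than double the other 2. Its 3 d change was 2.15 (SE 0.54, adjusted p = 0.0129). Tagln2, its abundant relative, had means of 494 to 698 CPM and changes of 0.27, 0.50 and 0.28 that did not pass. Cnn1, the smooth muscle calponin, ranged from 0 to 1.46 CPM, was at 0 in 4 libraries and did not pass.

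Calls of Cald1 held under every alternative. Cnn3 held at 3 d under every alternative and lost its 1.5 d call with the keratinocyte covariate (log2 change 0.82, adjusted p = 0.243). Cnn2 lost its 16 h call without NW replicate 2 or 16 h replicate 2 (adjusted p up to 0.0774, log2 change -1.38 to -0.86 over the 12 fits), and with that covariate (log2 change -1.12, adjusted p = 0.0787). Tagln lost its 3 d call without 3 d replicate 3 (adjusted p up to 0.081, log2 change 1.55 to 2.43 over the 12 fits), and with the covariate (log2 change 2.50, adjusted p = 0.151). Of the transcript windows of Tagln 58.3% also occur in the neighbours Gm48529 and Pcsk7. In the annotation used for counting its exons overlap Pcsk7 alone, over 5.99% of their length, so its count may be incomplete. In Cnn3 24% of windows are shared with other annotated genes.

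Of 10 adaptors of focal adhesions and stress fibres, 2 were higher at 16 h and 5 at each later time, and 1, Palld, was lower at 16 h and 1.5 d. Synpo, synaptopodin, a partner of alpha-actinin, had 9.84, 7.86 and 12.0 CPM in NW, 58.2, 59.1 and 40.1 CPM at 16 h, 64.1, 51.1 and 72.8 CPM at 1.5 d, and 69.8, 73.3 and 66.9 CPM at 3 d. The lowest wound value was more than 3 times the highest NW value. The changes were 2.41 (SE 0.24, adjusted p = 3.49e-05), 2.66 (SE 0.24, adjusted p = 2.68e-05) and 2.82 (SE 0.24, adjusted p = 1.68e-05). Pdlim7 (chr13:55497487-55513446), a PDZ and LIM domain adaptor, had 36.5, 34.6 and 22.9 CPM in NW, 78.7, 86.8 and 91.0 CPM at 16 h, 150.1, 119 and 126 CPM at 1.5 d, and 166, 146 and 131 CPM at 3 d. Groups did not overlap with NW, and both later groups lay above 16 h. Its changes were 1.45 (SE 0.21, adjusted p = 0.000443), 2.07 (SE 0.21, adjusted p = 4.89e-05) and 2.24 (SE 0.22, adjusted p = 3.17e-05). Palld (chr8:61511431-61902707), palladin, which binds alpha-actinin and organises stress fibres, had 133, 193 and 146 CPM in NW, 81.3, 63.0 and 67.8 CPM at 16 h, 89.1, 100.3 and 84.4 CPM at 1.5 d, and 206, 224 and 178 CPM at 3 d. Both early groups lay below NW, and 3 d overlapped with it. The changes were -1.16 (SE 0.20, adjusted p = 0.00133) at 16 h, -0.79 (SE 0.20, adjusted p = 0.0116) at 1.5 d and 0.36 (adjusted p = 0.213) at 3 d.

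Of the other adaptors, 4 had a call at 1 or more times. Tln1, talin, which couples integrins to actin, rose by 1.18 at 1.5 d and 1.53 at 3 d (adjusted p = 0.0362 and 0.0126). Lasp1, a LIM and SH3 protein of adhesions, rose by 1.17 and 1.36 (adjusted p = 0.00717 and 0.00358). Svil, supervillin, rose at 3 d alone, by 1.14 (SE 0.31, adjusted p = 0.0207), and Zyx, the mechanosensitive adaptor zyxin, at 1.5 d alone, by 0.75 (SE 0.25, adjusted p = 0.0411). Vcl, vinculin, had means of 237 ± 42.7 CPM at 3 d against 127 ± 18.1 CPM in NW and missed the threshold there (log2 change 0.90, adjusted p = 0.0542). Pxn, paxillin, and Pdlim5 had changes between -0.08 and 0.45 that did not pass. Calls of Synpo and Pdlim7 against NW held under every alternative, and the 16 h call of Palld did too. With the keratinocyte covariate the calls of Tln1, Lasp1, Svil and Zyx and the 1.5 d call of Palld were lost. The log2 changes in that fit were 1.01 and 1.34 for Tln1 at 1.5 d and 3 d (adjusted p = 0.499 and 0.335), 0.75 and 0.92 for Lasp1 (adjusted p = 0.443 and 0.317), and 1.28 for Svil (adjusted p = 0.259). Zyx had 0.17 (adjusted p = 0.906), and Palld -0.69 (adjusted p = 0.356). Palld lost its 1.5 d call without NW replicate 2 or 1.5 d replicate 3 (adjusted p up to 0.0538, log2 change -0.86 to -0.61 over the 12 fits). Tln1 lost its 1.5 d call without NW replicate 1, 2 or 3 or 1.5 d replicate 2 or 3 (adjusted p up to 0.121, log2 change 1.02 to 1.45 over the 12 fits), and its 3 d call without NW replicate 2 (adjusted p up to 0.0541, log2 change 1.38 to 1.79 over the 12 fits). Svil lost its call without NW replicate 2 or 3 d replicate 2 (adjusted p up to 0.0968, log2 change 0.78 to 1.40 over the 12 fits), and Zyx without NW replicate 1, 2 or 3, 16 h replicate 1 or 1.5 d replicate 1 or 3 (adjusted p up to 0.137, log2 change 0.59 to 0.94 over the 12 fits). Vcl shares 25.1% of its windows with the neighbour Ap3m1, but in the annotation used for counting 0% of its exon bases overlap another gene.

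Among proteins that hold monomers or nucleate, cut and cap filaments, gelsolin fell at 1.5 d and 3 d and most others did not pass. Gsn (chr2:35256359-35307902), which severs and caps filaments, had 21229, 17330 and 14232 CPM in NW, 13181, 13835 and 11669 CPM at 16 h, 7754, 5118 and 4892 CPM at 1.5 d, and 2386, 4382 and 2671 CPM at 3 d. No 2 of the 4 groups overlapped, and each later group was lower than the one before it. The change was -0.45 (adjusted p = 0.277) at 16 h, -1.57 (SE 0.29, adjusted p = 0.00225) at 1.5 d and -2.48 (SE 0.30, adjusted p = 0.000161) at 3 d. Tmsb4x (chrX:167207094-167209218), thymosin beta, the main store of actin monomers, had 973, 2036 and 889 CPM in NW, 345, 274 and 427 CPM at 16 h, 582, 471 and 167 CPM at 1.5 d, and 603, 462 and 1122 CPM at 3 d. Both early groups were below NW, where replicate 2 stood above the other libraries, and 3 d overlapped with NW. It changed by -1.90 (SE 0.47, adjusted p = 0.0111) at 16 h and -1.68 (SE 0.47, adjusted p = 0.0197) at 1.5 d. Pfn1 (chr11:70651847-70654650), profilin, had 480.5, 753 and 454 CPM in NW, 825, 965 and 1240.1 CPM at 16 h, 1129, 959 and 677 CPM at 1.5 d, and 1002, 778 and 1059 CPM at 3 d. The 16 h and 3 d groups lay above NW, narrowly for NW replicate 2. It rose at 16 h (log2 change 0.84, SE 0.27, adjusted p = 0.0348), and the later changes of 0.71 (adjusted p = 0.0686) and 0.75 (adjusted p = 0.0622) did not pass. Cfl1, cofilin, had changes of 0.65, 0.45 and 0.62 that did not pass. Arpc2 and Arpc5, subunits of the Arp2/3 nucleator, and Capg, a capping protein, lay between -0.27 and 0.48 and did not pass. Tmsb10, a second thymosin, ranged from 20.9 to 205 CPM and did not pass.

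The calls of Gsn held whichever library was left out, and at 3 d also with the keratinocyte covariate. At 1.5 d it was lost with the covariate (log2 change -1.38, adjusted p = 0.178). Tmsb4x lost its 16 h call without 16 h replicate 2 (adjusted p up to 0.0538, log2 change -2.08 to -1.42 over the 12 fits) and its 1.5 d call without NW replicate 2 or 1.5 d replicate 3 (adjusted p up to 0.0907, log2 change -2.02 to -1.19 over the 12 fits). Pfn1 lost its call without NW replicate 1 or 3 or 16 h replicate 2 or 3 (adjusted p up to 0.121, log2 change 0.67 to 1.11 over the 12 fits), and Pfn1 and Tmsb4x lost theirs with the covariate. The log2 changes with it were 0.79 for Pfn1 (adjusted p = 0.132), and -1.67 at 16 h and -1.24 at 1.5 d for Tmsb4x (adjusted p = 0.0587 and 0.483). In Tmsb10 and Cfl1, 27% and 18.3% of windows are shared with other genes.

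Small GTPases of the RhoA family switch contraction and filament assembly on and off, and they moved in different directions. Rnd3 and Rhob fell at all 3 times, Rhoc rose at 1.5 d and 3 d, and Rhoa, the main driver of stress fibres, had changes of -0.20, -0.25 and -0.14 that did not pass. Rnd3 (chr2:51130439-51149111), a small GTPase that opposes RhoA signalling, had 381, 492 and 562 CPM in NW, 296, 202 and 178 CPM at 16 h, 90.1, 182 and 102 CPM at 1.5 d, and 88.4, 249 and 186 CPM at 3 d. All wound libraries were below NW, and the 3 wound groups overlapped. Its changes were -1.08 (SE 0.37, adjusted p = 0.0455), -1.94 (SE 0.37, adjusted p = 0.00274) and -1.46 (SE 0.37, adjusted p = 0.0141). Rhob (chr12:8497661-8500009), an endosomal relative of RhoA, had 94.9, 92.0 and 100.4 CPM in NW, 47.4, 36.2 and 48.6 CPM at 16 h, 61.1, 58.4 and 36.7 CPM at 1.5 d, and 54.8, 55.4 and 58.8 CPM at 3 d. NW stood apart from every wound library. The changes were -1.12 (SE 0.22, adjusted p = 0.00277), -0.88 (SE 0.22, adjusted p = 0.0104) and -0.77 (SE 0.22, adjusted p = 0.0235). Rhoc (chr3:104789034-104794459), known for its part in cell movement, had 67.3, 78.7 and 48.2 CPM in NW, 79.8, 79.7 and 110.5 CPM at 16 h, 160.4, 115 and 80.0 CPM at 1.5 d, and 131, 101 and 155 CPM at 3 d. At 1.5 d and 3 d it lay above NW, with 1.5 d replicate 3 only just so. It rose by 0.87 (SE 0.28, adjusted p = 0.038) at 1.5 d and 1.00 (SE 0.28, adjusted p = 0.0237) at 3 d. Diaph3, a formin that elongates filaments, had means of 2.33 ± 1.50 CPM at 16 h, 7.07 ± 1.88 CPM at 1.5 d and 10.03 ± 1.14 CPM at 3 d, against 6.55 ± 4.49 CPM in NW, and passed in none of these 3 comparisons.

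Several of these calls were lost when 1 library was left out. Rnd3 lost its 16 h call without NW replicate 1, 2 or 3, 16 h replicate 2 or 3, 1.5 d replicate 3 or 3 d replicate 3 (adjusted p up to 0.14, log2 change -1.33 to -0.92 over the 12 fits), and its 3 d call without 3 d replicate 1 (adjusted p up to 0.0542, log2 change -1.77 to -1.13 over the 12 fits). Rhob lost its 3 d call without NW replicate 1, 2 or 3 or 3 d replicate 1 or 2 (adjusted p up to 0.0876, log2 change -0.79 to -0.72 over the 12 fits). Rhoc lost its 1.5 d call without NW replicate 1 or 3, 16 h replicate 2 or 1.5 d replicate 1 or 2 (adjusted p up to 0.152, log2 change 0.59 to 1.10 over the 12 fits), and its 3 d call without NW replicate 3 or 3 d replicate 1 or 3 (adjusted p up to 0.0812, log2 change 0.84 to 1.18 over the 12 fits). Of these genes' calls against NW, the one of Rhob at 16 h held with the keratinocyte covariate (log2 change -1.07, adjusted p = 0.0194) and the others were lost. In that fit the log2 changes of Rnd3 were -0.43, -0.67 and -0.22 at the 3 times (adjusted p = 0.334, 0.436 and 0.886), against -1.08, -1.94 and -1.46 without the covariate. Rhob had -0.77 and -0.66 at 1.5 d and 3 d (adjusted p = 0.343 and 0.473), and Rhoc 0.77 and 0.90 (adjusted p = 0.513 and 0.402).

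The membrane linkers moesin and ezrin, close relatives that tie filaments to the cell membrane, went in opposite directions. Msn (chrX:96096045-96168553), moesin, had 263, 189.7 and 238 CPM in NW, 914, 941 and 578 CPM at 16 h, 541, 821 and 861 CPM at 1.5 d, and 877, 791 and 682 CPM at 3 d. Every wound library was at least double the highest NW library. Its changes were 1.82 (SE 0.26, adjusted p = 0.000383), 1.69 (SE 0.26, adjusted p = 0.000648) and 1.77 (SE 0.26, adjusted p = 0.000535). Ezr (chr17:6738131-6782780), ezrin, which is abundant in epithelia, had 348, 498 and 477 CPM in NW, 292, 152 and 118 CPM at 16 h, 128, 126 and 115 CPM at 1.5 d, and 74.0, 166 and 171 CPM at 3 d. All wound values were below NW, with 16 h replicate 1 the highest of them. It changed by -1.24 (SE 0.35, adjusted p = 0.0219), -1.84 (SE 0.36, adjusted p = 0.00285) and -1.69 (SE 0.36, adjusted p = 0.00523). Marcksl1 (chr4:129513581-129515981), a membrane protein that binds actin, had 16.3, 17.4 and 12.0 CPM in NW, 13.4, 28.6 and 11.7 CPM at 16 h, 40.8, 24.5 and 27.0 CPM at 1.5 d, and 55.4, 49.5 and 47.9 CPM at 3 d. The 16 h libraries overlapped with NW, and those at 1.5 d and 3 d lay above it. The change was 1.02 (SE 0.33, adjusted p = 0.0405) at 1.5 d and 1.75 (SE 0.34, adjusted p = 0.00318) at 3 d. Msn held at 16 h with the keratinocyte covariate, and the other calls of this group did not. Its log2 changes in that fit were 1.74, 1.54 and 1.61 (adjusted p = 0.003, 0.0782 and 0.0522), close to those without it. Those of Ezr were -0.68, -0.68 and -0.61 (adjusted p = 0.139, 0.488 and 0.573), and those of Marcksl1 0.59 at 1.5 d and 1.32 at 3 d (adjusted p = 0.712 and 0.242), all nearer to 0 than without it. The fall of Ezr ran beside that of the keratinocyte markers, which summed to 8841 to 14420 CPM at 16 h against 19740 to 39420 CPM in NW, and the part of those cells was not tested further. Ezr lost its 16 h call without NW replicate 2 or 3 or 16 h replicate 2 or 3 (adjusted p up to 0.0916, log2 change -1.70 to -0.99 over the 12 fits). Marcksl1 lost its 1.5 d call without NW replicate 1, 2 or 3, 1.5 d replicate 1 or 3 or 3 d replicate 2 (adjusted p up to 0.145, log2 change 0.77 to 1.16 over the 12 fits).

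Srf (chr17:46546839-46556162), the transcription factor that reads the CArG box, was lower at every wound time. It had 96.2, 161 and 71.2 CPM in NW, 52.2, 44.9 and 46.0 CPM at 16 h, 52.8, 34.6 and 55.3 CPM at 1.5 d, and 24.8, 28.8 and 37.4 CPM at 3 d. All 9 wound libraries were below NW, NW replicate 2 stood well above the other 2, and 3 d had the lowest mean. The changes were -1.20 (SE 0.29, adjusted p = 0.0107), -1.20 (SE 0.29, adjusted p = 0.0103) and -1.85 (SE 0.30, adjusted p = 0.00113). Without NW replicate 2 the calls at 16 h and 1.5 d were lost (adjusted p = 0.0519 and 0.0518, with a log2 change of -0.81 at each), and with the keratinocyte covariate all 3 were lost. The log2 changes in that fit were -1.06, -0.92 and -1.58 (adjusted p = 0.0657, 0.422 and 0.13). Its cofactors Mrtfa and Mrtfb, which carry the signal from actin monomers to SRF, were measured beside it. Mrtfa had 22.5 ± 4.99 CPM at 1.5 d against 12.7 ± 3.59 CPM in NW and was called there (log2 change 0.82, SE 0.27, adjusted p = 0.0427), and Mrtfb had changes of 0.26, -0.17 and 0.27 that did not pass. Neither cofactor was called by the F test (adjusted p = 0.106 and 0.37).

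Comparisons between wound times tested which of these changes came late. At 3 d against 16 h 13 of 51 genes were higher and 1 lower, 27.5% of those tested, where 9.53% of all genes were called (5.86% higher and 3.67% lower). The median log2 change was 0.54, and -0.02 over all genes. Myl9 (log2 change 3.91, SE 0.48, adjusted p = 0.000427), Mylk (log2 change 2.99, SE 0.48, adjusted p = 0.0021) and Tagln (log2 change 2.73, SE 0.55, adjusted p = 0.00801) had the largest rises of these. Tpm2 rose by 1.76 (SE 0.45, adjusted p = 0.028), Cnn2 by 1.66 (SE 0.33, adjusted p = 0.00716), Palld by 1.52 (SE 0.20, adjusted p = 0.000571), Marcksl1 by 1.51 (SE 0.34, adjusted p = 0.0136) and Diaph3 by 2.11 (SE 0.59, adjusted p = 0.0399). Myh10 (log2 change 1.29, adjusted p = 0.00449), Fscn1 (log2 change 1.29, adjusted p = 0.0255), Tpm1 (log2 change 1.15, adjusted p = 0.0202), Cnn3 (log2 change 1.08, adjusted p = 0.00405) and Pdlim7 (log2 change 0.79, adjusted p = 0.0303) rose as well, and Gsn fell (log2 change -2.03, SE 0.30, adjusted p = 0.00119). In each of the genes called here the 3 d and 16 h libraries did not overlap. From 16 h to 3 d the pericyte and vascular smooth muscle markers rose beside Myl9, Mylk and Tagln. Without Acta2 they summed to 139.2 to 215.8 CPM at 3 d against 34.7 to 61.5 CPM at 16 h. Against NW they did not run together: the sum at 3 d was below NW (305.4 to 359.3 CPM), and Myl9 and Tagln were above it. Most of the 3 d sum was Ndufa4l2, with 2195, 2783 and 4092 counts. Of the 11 tested markers of that list, Acta2 included, 4 were higher at 3 d by edgeR (median log2 change 2.15), and the part of those cells was not tested. Leaving out any 1 library of 16 h lowered the count of higher genes to 8. With total counts in place of TMM scaling, 42% of all genes called at 3 d against 16 h were higher, where TMM gave 61.5%, the median of all genes shifted to -0.19, and 11 of the 51 genes were higher and 1 lower. Groups without overlap were found in 23 of 51 genes, 45.1%, against 32.5% of all genes.

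Fewer calls were made between neighbouring times. At 1.5 d against 16 h 2 of 51 genes were higher, 3.92%, where 2.86% of all genes were called (2.39% higher), and they were Myl9 (log2 change 2.15, SE 0.45, adjusted p = 0.024) and Mylk (log2 change 2.03, SE 0.46, adjusted p = 0.035). EdgeR called 0 lower (0.47% of all genes), with 3 lower at an unadjusted p under 0.05, and DESeq2 and limma-voom called 1 each. At 3 d against 1.5 d Palld was the 1 gene called, higher by 1.15 (SE 0.20, adjusted p = 0.0457), 1.96% of those tested against 0.141% of all genes (0.101% higher). Here edgeR called 0 lower (0.0403% of all genes), with 2 lower and 11 higher at an unadjusted p under 0.05, and DESeq2 and limma-voom also called 0 lower. DESeq2 called 5 higher and limma-voom 2. Of all genes called at 3 d against 1.5 d, 71.4% were higher with TMM scaling and 41.2% with total counts. The Palld call at 3 d against 1.5 d was lost without NW replicate 1 or 3, 16 h replicate 1, 2 or 3, 1.5 d replicate 1, 2 or 3 or 3 d replicate 1, 2 or 3 (adjusted p up to 0.167, log2 change 1.09 to 1.24 over the 12 fits). Myl9 lost its call at 1.5 d against 16 h without 16 h replicate 1, 2 or 3 or 1.5 d replicate 1 or 2 (adjusted p up to 0.094, log2 change 1.64 to 2.52 over the 12 fits), and Mylk without NW replicate 3, 16 h replicate 2 or 3, 1.5 d replicate 2 or 3 or 3 d replicate 2 (adjusted p up to 0.123, log2 change 1.68 to 2.61 over the 12 fits). Both were also lost with limma-voom and with the keratinocyte covariate, where Myl9 had a log2 change of 2.29 (adjusted p = 0.0729) and Mylk one of 2.38 (adjusted p = 0.0571).

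At 3 d against 16 h the calls of Myl9, Mylk, Myh10, Tagln, Cnn2, Cnn3, Palld and Gsn held under every alternative. Fscn1 lost its call without 16 h replicate 1, 2 or 3 or 3 d replicate 1 or 2 (adjusted p up to 0.101, log2 change 1.10 to 1.41 over the 12 fits). Tpm1 lost its call without 16 h replicate 1 or 2 or 3 d replicate 1 or 3 (adjusted p up to 0.0815, log2 change 0.86 to 1.37 over the 12 fits), and Tpm2 without 16 h replicate 1, 2 or 3 or 3 d replicate 3 (adjusted p up to 0.114, log2 change 1.30 to 1.98 over the 12 fits). Pdlim7 lost its call without 16 h replicate 1, 2 or 3 or 3 d replicate 1 or 2 (adjusted p up to 0.132, log2 change 0.67 to 0.87 over the 12 fits), Marcksl1 without 16 h replicate 1 or 3 (adjusted p up to 0.0608, log2 change 1.28 to 2.02 over the 12 fits) and Diaph3 without 16 h replicate 2 or 3, 1.5 d replicate 2 or 3 or 3 d replicate 1, 2 or 3 (adjusted p up to 0.114, log2 change 1.70 to 2.64 over the 12 fits). With the keratinocyte covariate 9 were higher and 1 lower, where 5.57% of all genes were called. The calls lost with it were Fscn1 (log2 change 1.11, adjusted p = 0.106), Pdlim7 (0.61, adjusted p = 0.154), Marcksl1 (1.31, adjusted p = 0.0563) and Diaph3 (2.30, adjusted p = 0.077).

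The make-up of families of near-equivalent proteins is described here as each gene's share of the family's summed level per kilobase. Beta-actin made up 82.1% ± 3.39, 80.8% ± 1.71 and 82.0% ± 2.41 of both cytoplasmic actins at 16 h, 1.5 d and 3 d, against 63.3% ± 1.03 in NW, with no overlap between wounds and NW. Myh9 made up 89.2% ± 3.92, 81.7% ± 8.33 and 84.7% ± 0.586 of Myh9 and Myh10, against 72.4% ± 5.68 in NW, and 1.5 d replicate 1 lay within the NW range. Cnn3 took 74.0% ± 1.86, 77.7% ± 3.09 and 65.9% ± 6.61 of the calponins, against 47.8% ± 12.1 in NW, where replicate 1 lay above 3 d replicate 3. In the regulatory light chains, Myl9 took 1.08% ± 0.463 at 16 h, 3.62% ± 0.929 at 1.5 d and 10.6% ± 1.33 at 3 d, against 3.84% ± 0.493 in NW. Tpm2 took 2.15% ± 0.626, 1.71% ± 0.784 and 4.74% ± 1.52 of the tropomyosins, against 1.80% ± 0.452 in NW, with Tpm4 the largest part in every library. Rhoc took 27.9% ± 3.35, 33.8% ± 5.49 and 34.2% ± 3.78 of Rhoa, Rhob and Rhoc, against 18.4% ± 3.47 in NW. These shares were not tested.

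**Figure D4:**
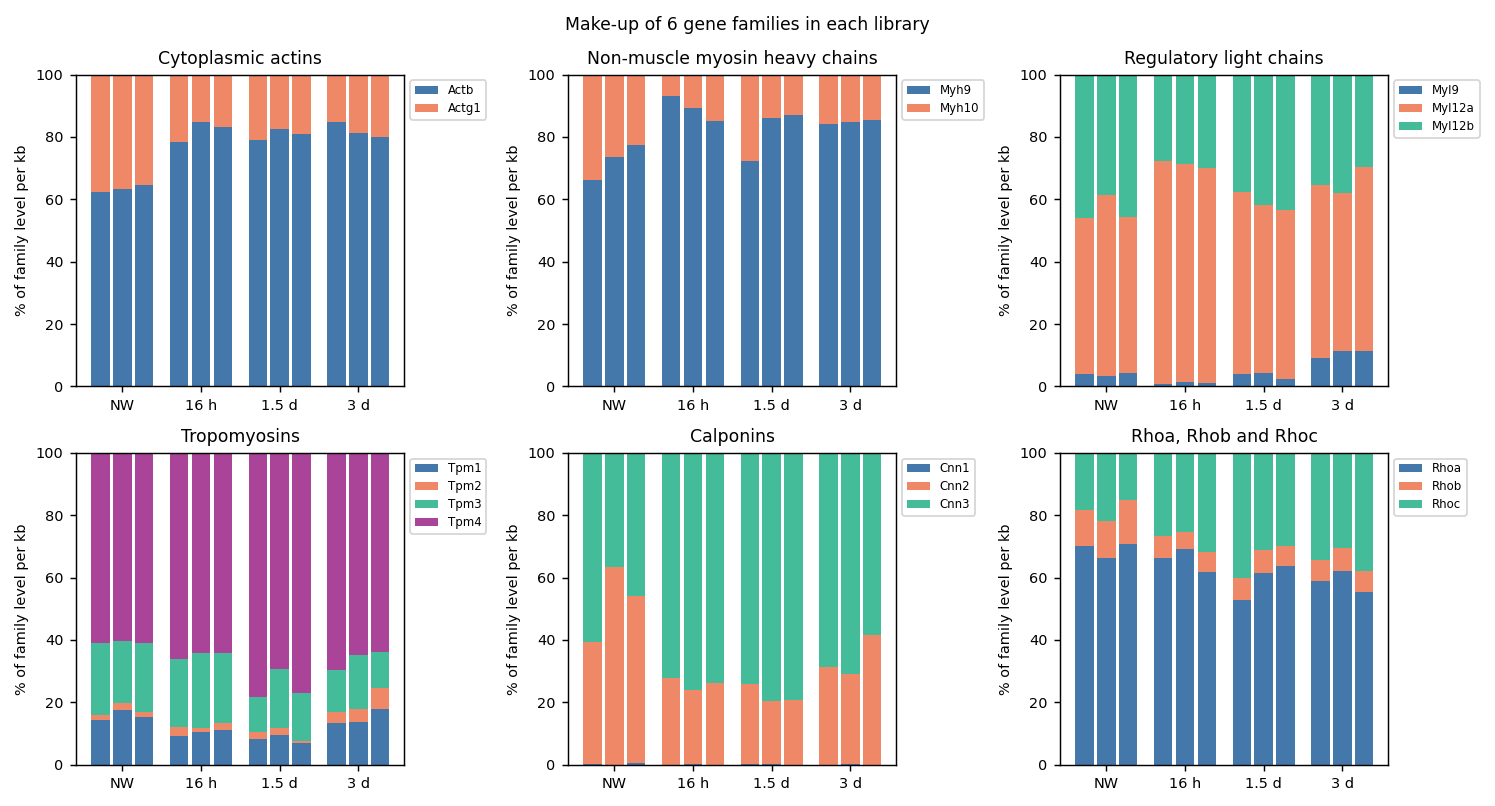
Share of each gene in its family's summed level (CPM per kilobase of exon), 1 bar per library, in the order of replicates 1 to 3 within NW, 16 h, 1.5 d and 3 d. Beta-actin fills 63.3% of the actin bars on average in NW and 80.8% to 82.1% in the wound groups, and Myl9 is a thin band that is widest at 3 d.

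Of 119 other genes of the pathway, in 8 lists, 117 were tested. Their calls are given for the fit without a covariate alone. At 16 h 25 were higher and 11 lower, at 1.5 d 26 and 14, and at 3 d 28 and 11, which is 30.8%, 34.2% and 33.3% of those tested, where 24.7%, 24.5% and 21.1% of all genes were called. The F test called 42, 35.9%, against 29.7% of all genes. These lists too were chosen with earlier results of these data known. Focal adhesion scaffolds and kinases had the most calls: of 19 genes 5 were higher and 2 lower at 16 h, 7 and 2 at 1.5 d, and 11 and 2 at 3 d, with a median change of 0.87 at 3 d. Csrp2, a LIM protein of contractile cells, had 72.1 ± 23.7 CPM at 3 d against 17.6 ± 4.55 CPM in NW (log2 change 2.03, SE 0.36, adjusted p = 0.00186), and rose by 2.98 (adjusted p = 0.000462) over 16 h. Tln2, the second talin, changed by 2.42 (adjusted p = 0.00038), 2.41 (adjusted p = 0.000418) and 2.79 (adjusted p = 0.000168). Of 17 myosin motors and regulators 5 were higher and 1 lower at 16 h, and 3 and 2 at 3 d. Myo9b, a myosin that inactivates RhoA, changed by 1.07, 1.54 and 1.40, each called.

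Nucleators and regulators were mixed. Of 16 genes of the Arp2/3 complex and its activators 3 were higher and 2 lower at 16 h, and 2 and 2 at each later time. Of all genes, 24.7%, 24.5% and 21.1% were called at the 3 times. The counts of this list at the later times, and of monomer turnover at 3 d, lay near those shares. No list was tested against them. Arpc1b, a subunit of the complex, had 784 ± 85.0 CPM at 16 h against 247 ± 48.1 CPM in NW (log2 change 1.66, SE 0.23, adjusted p = 0.000347), whereas the activator Wasf2 changed by -0.75, -0.98 and -0.97, each called. Of 12 formins and Ena/VASP genes 3 were higher and 1 lower at 3 d, with Fmnl3, a formin, at 33.7 ± 9.54 CPM against 2.50 ± 1.42 CPM in NW (log2 change 3.75, SE 0.47, adjusted p = 0.000168), and Evl higher by 1.67 (adjusted p = 0.00421). Of 18 genes of monomer turnover and filament ends 2 were higher and 2 lower at 3 d, with Dstn, a cofilin relative, lower (log2 change -1.06, adjusted p = 0.0101) and Twf1, a monomer binder, higher (log2 change 1.06, adjusted p = 0.00241). Of 18 other genes of small GTPases and their regulators 5 were higher at 3 d. Rnd1, a relative of Rnd3, was higher at all 3 times (2.34, 2.43 and 1.38, adjusted p = 0.0002, 0.000168 and 0.00504), opposite to Rnd3. Racgap1, a GTPase activator of dividing cells, rose at 3 d against 16 h (log2 change 2.15, adjusted p = 0.013). Of 15 tested crosslinkers and cortex linkers 2 were higher and 2 lower at 3 d, with Pdlim2, a PDZ and LIM domain protein, lower at all 3 times (at 16 h, log2 change -3.34, adjusted p = 0.000205).

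Acta2, smooth muscle actin and the usual mark of myofibroblasts, is not one of the 52 genes but sits beside them. It had 11.3, 8.82 and 5.51 CPM in NW, 6.90, 5.48 and 3.39 CPM at 16 h, 80.0, 29.6 and 27.5 CPM at 1.5 d, and 235, 199.6 and 362 CPM at 3 d. The 3 d libraries stood far above all others, those at 1.5 d above NW, and 16 h overlapped with NW. Its change against NW was 2.42 (SE 0.44, adjusted p = 0.002) at 1.5 d and 4.96 (SE 0.49, adjusted p = 3.62e-05) at 3 d. At 3 d Tpm1, Tpm2 and Tagln also rose against NW, whereas the changes of Cnn1 (log2 change -0.22, adjusted p = 0.952) and Mylk (log2 change -0.21, adjusted p = 0.779) did not pass.

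In each group 1 library differed from the other 2 by gene length: NW replicate 2, 16 h replicate 3, 1.5 d replicate 1 and 3 d replicate 3. In these 4, genes with over 5000 exon bases (3099 genes) were low and genes with up to 1500 (2433 genes) high relative to their own group mean. The median deviation of long minus short genes was -0.56, -0.52, -0.67 and -0.67 on the log2 scale, while the 8 other libraries had 0.13 to 0.52. The 11 long members, Palld, Pdlim5, Svil, Vcl, Tln1, Synpo, Flnc, Flna, Myh9, Mylk and Myh10, and the 9 short ones, Myl6, Tmsb10, Cfl1, Pfn1, Myl12b, Rhoc, Tmsb4x, Myl9 and Tagln2, followed the same split, except that the short ones were at 0.04 in 1.5 d replicate 2. Median log2 changes against NW also differed by length. At 16 h they were 0.05 and -0.24 for all long and short genes, and 0.44 and -0.63 for the members. At 1.5 d they were -0.03 and -0.06, and 0.49 and -0.39. At 3 d they were 0.08 and -0.19, and 1.14 and 0.28. A fit with a length measure of each library as a covariate was added once the split within groups had been seen. In it 16 genes were higher and 14 lower at 16 h, 21 and 12 at 1.5 d, and 25 and 7 at 3 d, and every call of the fit without it held. Calls over all genes rose as well, to 4614 at 16 h, 4863 at 1.5 d and 3925 at 3 d. Without the length covariate they were 3687, 3647 and 3147.

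**Figure D5:**
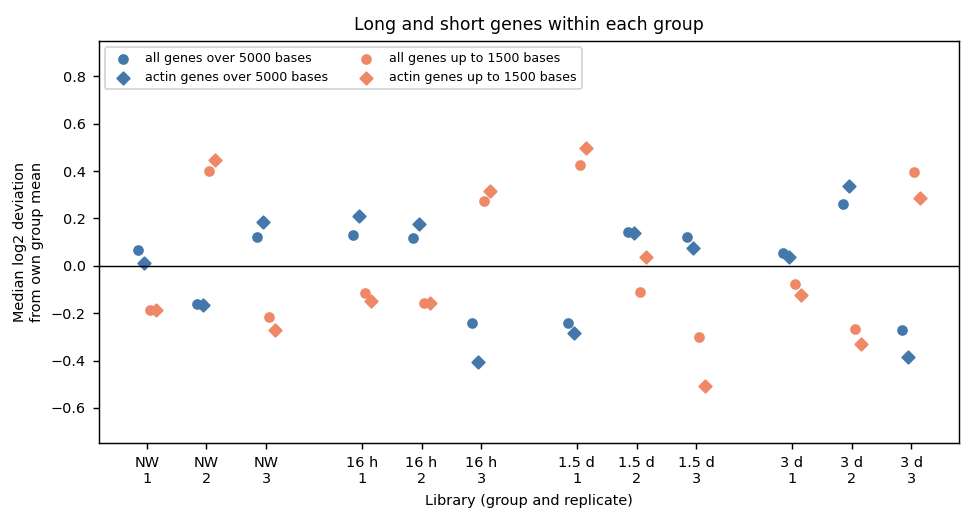
Median log2 deviation from the own group's mean, for long genes (blue, over 5000 exon bases) and short genes (orange, up to 1500), over all tested genes (circles) and over the actin genes (diamonds), in each of the 12 libraries. One library per group has long genes below and short genes above its group mean, for example NW replicate 2 with -0.16 and 0.40 over all genes.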

How the data were processed

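Sorted fibroblasts from 12 mice were profiled by bulk RNA-seq, as full-length cDNA libraries that do not keep strand, read in pairs, per the labels' protocols. The deposited table holds raw counts of read pairs per gene, made by the authors with featureCounts 2.0.0 over exons of mm10 RefSeq genes, per the file headers, with no option for strand or for reads that map to several genes. STAR, SAMtools, Subread and Partek are named without versions in the submitters' processing notes.

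Genes passing edgeR's expression filter (14901) were scaled by TMM and tested with edgeR 4.0.16 (quasi-likelihood F test, Benjamini-Hochberg, adjusted p under 0.05) in R 4.3.3, in 1 fit of all 4 groups with 6 comparisons and no covariate. The procedure was tested on simulated data. Alternatives used DESeq2 1.42.0 and limma 3.58.1, other scalings and filters, a keratinocyte score, a replicate term, the compared groups alone and each library left out. Same-group libraries correlated at 0.917 to 0.956 and differed beyond sampling noise. Each group is 3 mice, so p-values measure the spread between libraries of different mice, with differences in sorting and library preparation included.

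The members and lists were chosen with earlier results of these data known. Values in every library are given for up to 3 genes of each role with the smallest F test p, and for the 4 largest rises and falls against NW among called genes of at least 20 CPM. Of each other pathway list, up to 2 genes with the smallest F test p are named, except a few that are not reported here. Shared transcript windows of 50 bases were counted on GENCODE transcripts. Levels per kb use the table's exon lengths.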

Additional observations from a re-analysis of the deposited data

Results flagged for a closer look

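The results listed here differed between 2 wound times, each by edgeR's quasi-likelihood test of that difference (Benjamini-Hochberg adjusted p under 0.05). Values are log2 changes, and the adjusted p of each stands in the report. At 3 d against 16 h, contractile genes that had fallen by 16 h were higher: Myl9 by 3.91, Mylk by 2.99, Cnn2 by 1.66, Palld by 1.52 and Myh10 by 1.29. Genes with a late rise were Tagln (2.73), Tpm2 (1.76), Tpm1 (1.15) and Marcksl1 (1.51). Diaph3 was higher by 2.11, in none of its comparisons with NW called. Fscn1 (1.29), Cnn3 (1.08) and Pdlim7 (0.79) were higher at 3 d than at 16 h and also higher than in NW at 3 d. Gsn went the other way, with -2.03. At 1.5 d against 16 h Myl9 was higher by 2.15 and Mylk by 2.03. At 3 d against 1.5 d Palld was higher by 1.15, in all 3 libraries of 3 d against all 3 of 1.5 d.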

How the results depend on the processing

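Of the 88 calls on single genes, none reversed under any alternative. All 88 were kept with DESeq2, RLE size factors, the stricter filter (1 CPM in 3 libraries) and the length covariate, 87 without a filter, 86 with limma-voom, 82 with total counts, 81 with the compared groups alone and 39 with the keratinocyte score as a covariate. With 1 library left out, 920 of 1056 were kept. Counts are members called higher or lower. With the keratinocyte score, 6 were lower at 16 h, 5 higher and 0 lower at 1.5 d, 8 higher and 1 lower at 3 d, 0 higher at 1.5 d against 16 h, and 18 passed the F test. The same score lowered the calls over all genes to 1855 of 3687 at 16 h, 221 of 3647 at 1.5 d and 319 of 3147 at 3 d, and the cause was not tested. At 1.5 d against 16 h calls over all genes were 107 with the score and 426 without it. With the length covariate 12 were lower at 1.5 d, 4 were higher and 1 lower at 1.5 d against 16 h, 21 were higher at 3 d against 16 h and 5 at 3 d against 1.5 d. Calls over all genes rose with it too, from 426 to 1290, 1420 to 2770 and 21 to 81 in these last 3 comparisons. At 1.5 d against 16 h, DESeq2 gave 4 higher and 1 lower, limma-voom and the compared groups alone 0 higher and 1 lower, and no filter, the stricter filter and total counts 1 lower. At 3 d against 1.5 d the count higher was 5 with DESeq2, 2 with limma-voom, 0 with total counts and 0 with the compared groups alone. The cause of these shifts was not tested.

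Replicate numbers did not pair the libraries: 18 same-number pairs correlated at -0.17 to 0.17, and 36 pairs of different numbers at -0.20 to 0.20. With the replicate block 10 members were higher and 11 lower at 16 h, 13 and 7 at 1.5 d, 19 and 6 at 3 d, 10 and 1 at 3 d against 16 h, 0 higher at 1.5 d against 16 h and 0 higher at 3 d against 1.5 d. The F test passed 28, and 77 of the 88 gene calls were kept.

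With 1 library left out, 8 to 13 were higher and 6 to 13 lower at 16 h, 11 to 15 higher and 4 to 10 lower at 1.5 d, and 18 to 21 higher and 3 to 6 lower at 3 d. At 1.5 d against 16 h it was 0 to 2 higher and 0 to 1 lower, at 3 d against 16 h 8 to 15 higher and 1 lower, at 3 d against 1.5 d 0 to 1 higher and 0 lower, and 27 to 32 passed the F test. With 3 libraries a group, genes near the detection limit such as Cnn1 could change without being called.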
